A study of Caenorhabditis elegans with 2 samples.

Results

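The genes examined encode proteins of the apical extracellular matrix of Caenorhabditis elegans, many of them with a zona pellucida (ZP) domain. They were taken by name from the Ensembl release 115 annotation of WBcel235: all protein-coding genes called cut-, cutl-, lpr- or noah- plus a number, together with fbn-1, let-653, sym-1, egg-6 and dex-1. The rule gave 49 of 19973 nuclear protein-coding genes: 6 cut, 29 cutl, 7 lpr and 2 noah genes and the 5 single genes. Chromatin immunoprecipitation followed by sequencing (ChIP-seq), which places on the genome the DNA fragments attached to a chosen protein, was used on ELT-3, a GATA-type transcription factor. There was 1 group: embryos of mixed stage and pooled sex, of unknown age, from the strain OP75, which carries the integrated transgene wgIs75 in an unc-119(ed3) III background. The labels describe the target as eGFP-elt-3 and name elt-3 as the antibody. The material was the whole organism, so chromatin of every embryonic cell type entered each of the 2 biological replicates. No control data were analysed here, and peak lists give no gene expression by which the tissue could be checked.

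The apical matrix is secreted on the outer face of epidermal and tube-lining cells. In the embryo a transient precuticle precedes the collagen cuticle and helps shape the body and keep narrow tubes intact. ZP-domain proteins polymerise through that domain. Cuticlins (cut and cutl genes) are named for the insoluble cuticle layers in which the first of them were found, lipocalins such as those of the lpr genes carry small lipophilic molecules, and extracellular leucine-rich repeat proteins such as SYM-1 and EGG-6 organise matrix. ELT-3 is known from the epidermis, and GATA factors recognise the letters AGATAA or AGATAG and also TGATAA or TGATAG, called GATA sequences below.

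Of 4 deposited ce11 lists, the shortest held 637 regions kept by the irreproducible discovery rate (IDR), which compares the ranks of peaks between replicates. They are called reproducible peaks. A pooled list of 12702 regions and lists of 19168 regions (replicate 1) and 26381 regions (replicate 2) were called at a relaxed threshold and include background. Each region has a summit and a signal, the peak caller's own score, with no stated scale. Its median was 18.0 in the pooled list, 11.1 in replicate 1 and 6.05 in replicate 2, so values are read only within a list. The reproducible list was the 637 highest regions of the pooled list and carries the same signals. Genes were scored for summits in introns and in a 5′ window that began 1000 bp before the annotated 5′ end and closed 500 bp past it. Many worm genes are trans-spliced, so transcription may begin upstream of the annotated 5′ ends.

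Reproducible summits stood in the 5′ windows of 3 of the 49 genes, lpr-3, lpr-4 and noah-1. That is 6.12% (exact 95% binomial interval 1.28 to 16.9%), where 1.79% of all protein-coding genes had one, a share inside the interval. A single further gene, cutl-18, had a reproducible summit in an intron, or 2.04% against 0.731% of all genes. For dex-1 and cut-2 the reproducible summit with the nearest protein-coding 5′ end lay upstream of the window. By nearest 5′ end, 6 of 49 genes had a reproducible summit, where 2.86% of all genes did.

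The sequences under these reproducible summits, that of noah-1 not being shown, are given because they differ in whether a GATA sequence is there. With them are 3 weaker summits found in both replicates, lpr-5, cut-6 and cutl-17, which are a selection. Pooled summits of cutl-11, cutl-23 (614 bp downstream) and sym-1, also found in both replicates, held no GATA sequence and are not shown. Nor did the replicate 1 summits matched in replicate 2 at dex-1 (9044 bp downstream) and egg-6 (1127 bp downstream). Each is the 101 bases centred on the pooled summit on WBcel235 (ce11), 5′ to 3′ on the strand of the gene, and capitals mark GATA sequences on either strand.
lpr-3 (chrX:11057241-11057341, plus strand): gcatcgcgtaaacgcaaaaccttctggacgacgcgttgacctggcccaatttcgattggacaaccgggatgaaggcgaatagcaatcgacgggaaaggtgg
lpr-4 (chrX:11064905-11065005, plus strand): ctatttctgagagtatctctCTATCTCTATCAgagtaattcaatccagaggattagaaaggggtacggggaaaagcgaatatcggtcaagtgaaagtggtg
lpr-5 (chrX:11062024-11062124, plus strand): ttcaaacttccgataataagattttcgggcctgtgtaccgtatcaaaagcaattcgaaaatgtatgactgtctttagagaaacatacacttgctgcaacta
dex-1 (chrIII:5524027-5524127, plus strand): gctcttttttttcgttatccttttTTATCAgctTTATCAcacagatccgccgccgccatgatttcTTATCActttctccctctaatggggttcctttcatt
cut-2 (chrV:13413473-13413573, plus strand): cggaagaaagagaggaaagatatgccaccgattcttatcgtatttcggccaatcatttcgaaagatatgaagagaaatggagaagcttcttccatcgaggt
cutl-18 (chrV:11314149-11314249, minus strand): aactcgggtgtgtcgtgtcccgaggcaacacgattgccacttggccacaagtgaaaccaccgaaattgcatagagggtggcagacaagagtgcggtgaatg
cut-6 (chrIII:10911309-10911409, plus strand): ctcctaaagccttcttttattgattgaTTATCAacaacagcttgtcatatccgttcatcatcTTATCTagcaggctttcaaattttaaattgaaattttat
cutl-17 (chrIV:9450430-9450530, minus strand): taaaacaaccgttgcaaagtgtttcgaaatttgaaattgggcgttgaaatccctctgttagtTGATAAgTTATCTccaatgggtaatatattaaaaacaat

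The lipocalin-related genes lpr-3, lpr-6, lpr-5 and lpr-4 follow one another on chromosome X on the plus strand, with gaps of 200, 251 and 586 bp and no other protein-coding gene between them. LPR-3 is a precuticle component needed for the integrity of narrow epithelial tubes. Its summit lay 110 bp upstream (chromosome X, 11057101 to 11057480, intergenic) with a pooled signal of 51.5, rank 369. The replicate 1 list had a summit 135 bp upstream with a signal of 27.9, and replicate 2 one 100 bp upstream with 25.7. No GATA sequence was within 50 bp, the nearest being centred 53.5 bp away, and the summit window was 54.5% G and C.

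At lpr-4, the last gene of the run, the summit lay 171 bp upstream (chromosome X, 11064765 to 11065144, intergenic), with a pooled signal of 57.3, rank 268. Signals were 27.3 in replicate 1, with the summit 97 bp upstream, and 24.4 in replicate 2, 170 bp upstream. As printed, AGATAG and TGATAG stand directly side by side on the opposite strand; the nearer is centred 21.5 bp from the summit. Both genes at the ends of the run thus ranked within the 637 highest regions of the pooled list. Leaving replicate 2 out, with the 637 highest regions of replicate 1 taken instead, kept lpr-3 and lpr-4 and lost noah-1. Leaving replicate 1 out kept all 3.

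The middle genes of the run were lower. At lpr-5 a summit 49 bp upstream had a pooled signal of 18.3, with 12.3 in replicate 1 and 5.89 in replicate 2, the 2 replicate summits being 13 bp apart. It held none of the GATA sequences. For lpr-6 neither 5′ window nor intron held a pooled summit. Single intron summits were 1140 bp downstream in replicate 1 (9.04) and 605 bp downstream in replicate 2 (6.03), so they did not match. Past lpr-4, and in no window of the 4 genes, a pooled summit 10095 bp from the 5′ end of lpr-3 had a signal of 37.5, with 18.6 and 19.3 in replicates 1 and 2. It lay upstream of the next protein-coding gene, apt-9, on the plus strand, whose 5′ end is 11126 bp from that of lpr-3.

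**Figure D1:**
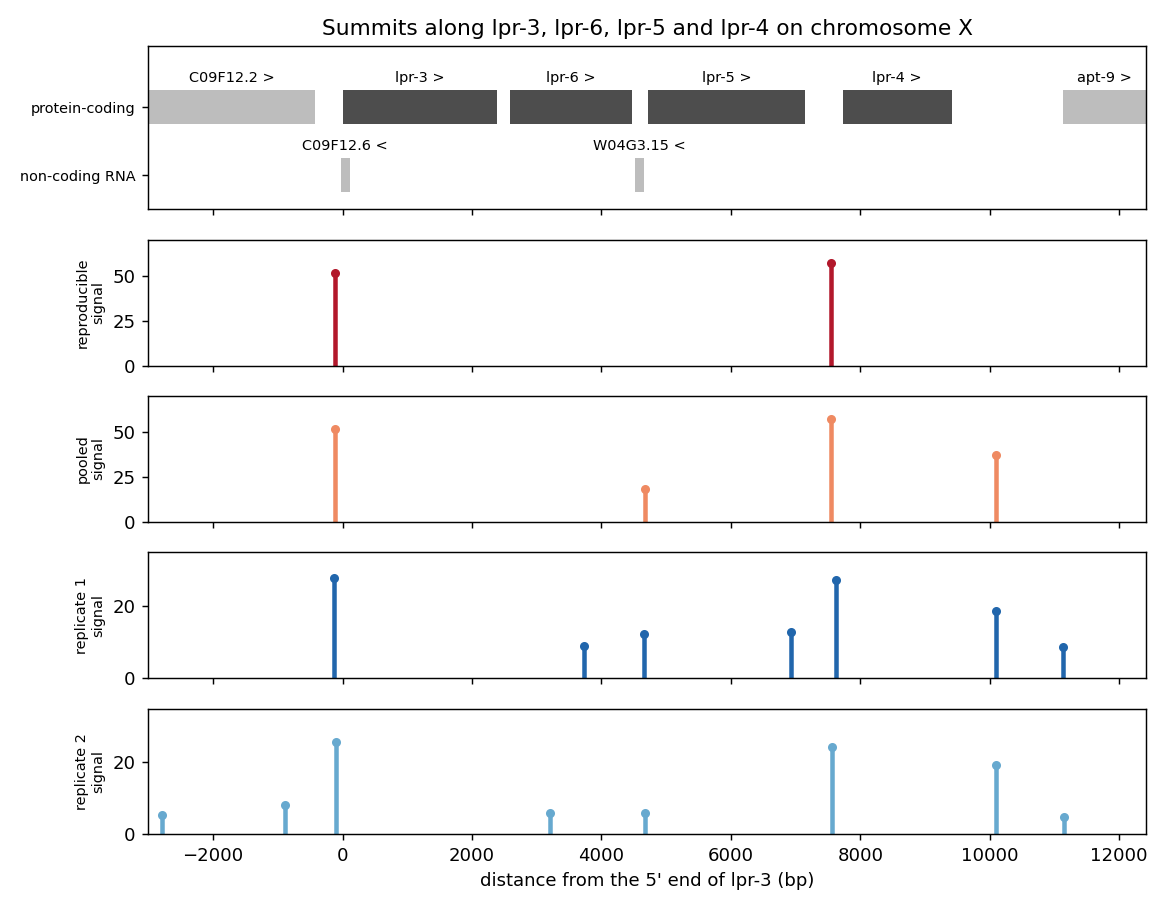
Summits along the lpr-3, lpr-6, lpr-5 and lpr-4 genes. The x axis is distance in bp from the 5′ end of lpr-3, the top panel shows annotated genes with their direction, and each lower panel gives the signal (y axis, list's own scale) of every summit in 1 list. Reproducible summits stand before lpr-3 (51.5) and lpr-4 (57.3), and the summit before lpr-5 (18.3) is in the pooled and replicate lists.

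The remaining lpr genes lie elsewhere. LPR-1 is required for the integrity of the excretory tubes. The lpr-1 window held pooled summits 661 bp upstream (18.2) and 197 bp downstream (19.0). Replicate 1 had a summit 661 bp upstream with a signal of 18.1, and replicate 2 had one 76 bp downstream with 17.1, so the replicates placed it differently. At lpr-7 the pooled summit lay 136 bp downstream, in coding sequence, at 17.2. The window summits of lpr-7 were 409 bp upstream in replicate 1 (8.48) and 109 bp downstream in replicate 2 (8.41), so they did not match. The lpr-2 window held 1 summit, 630 bp upstream in replicate 2, with a signal of 6.49.

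NOAH-1 is a ZP protein of the embryonic precuticle that attaches epidermis to matrix and is related to Drosophila NompA. The noah-1 summit lay 548 bp upstream (chromosome I, 5879316 to 5879695) in an exon of the annotated non-coding RNA gene C34G6.11. Its pooled signal was 43.2, rank 598, just inside the reproducible list, whose lowest signal was 42.0. Replicate 1 had 18.2 at a summit 595 bp upstream, rank 2028 of 19168, and replicate 2 had 21.0 at 510 bp upstream, rank 478 of 26381. It held 2 GATA sequences within 50 bp. Its partner noah-2 had a pooled summit 119 bp upstream at 16.6 and an intron summit 1512 bp downstream at 19.5. Replicate 1 had both noah-2 summits within 35 bp (15.2 and 19.8), while replicate 2 had neither within 100 bp.

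The highest signal at any of the 49 genes was in an intron of the ZP gene cutl-18, 2702 bp downstream of the 5′ end (chromosome V, 11314009 to 11314388). It was 102 in the pooled list, rank 52, with 63.1 in replicate 1 and 40.8 in replicate 2, at summits 16 bp apart. The small nucleolar RNA gene T03F7.8 lies 59 bp from this summit. No GATA sequence was within 50 bp, and the window was 54.5% G and C. With summits near (within 200 bp of) genes for small nucleolar, small nuclear, transfer and ribosomal RNAs left out, an alternative chosen after seeing the data, 0 of the 49 genes had a reproducible intron summit and all 3 with one in the 5′ window kept it. The part of the small RNA gene in the cutl-18 signal was not tested.

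DEX-1 is a matrix protein that anchors dendrite tips and acts in epidermal remodelling. Its nearest reproducible summit lay 2027 bp upstream (chromosome III, 5523887 to 5524266), outside the 5′ window of any protein-coding gene, at a pooled signal of 43.1. Its pooled rank was 600, just inside the reproducible list. Replicate 1 had 24.7, rank 765 of 19168, and replicate 2 had 15.7, rank 1010 of 26381. The sequence above holds TGATAA at 3 places on the opposite strand, the most of any reproducible summit at these genes. The gene had a weaker pooled summit in an intron, 1623 bp downstream, at 17.6. CUT-2 is a cuticlin, and the summit 1426 bp upstream of cut-2 (chromosome V, 13413333 to 13413712) had a pooled signal of 52.7, with 26.3 and 23.01 in replicates 1 and 2. No GATA sequence was within 50 bp there, the nearest being centred 345.5 bp away.

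Among the 6 reproducible summits assigned to these genes, lpr-4, noah-1 and dex-1 held GATA sequences, and lpr-3, cut-2 and cutl-18 did not. For the 2 lpr genes this depended on the summit used. Within 50 bp of the replicate 1 summits there was 1 GATA sequence at lpr-3 and 0 at lpr-4. Around the replicate 2 summits there were 0 at lpr-3 and 2 at lpr-4, as in the pooled list. Of all nuclear reproducible summits, 38.4% held one within 50 bp. Over the 27 pooled summits in 5′ windows or introns of the genes, 8 did, or 29.6% (exact 95% interval 13.8 to 50.2%), next to 24.6% of all nuclear pooled summits and 19.8% of the nuclear genome cut into windows of the same 101 bp. The 5′ windows themselves held a median of 4 GATA sequences per gene, as did those of all protein-coding genes. They were present in 46 of 49 windows (93.9%) and in 96.1% of all windows, and a match is a description of the letters, not of a site in use.

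In the pooled list, 19 of 49 genes had a summit in the 5′ window, or 38.8% (exact 95% interval 25.2 to 53.8%), against 25.4% of all genes. Intron summits were in 9 of 49, or 18.4%, against 12.4%. By family, the windows with a pooled summit were 1 of 6 for cut, 10 of 29 for cutl, 5 of 7 for lpr, 2 of 2 for noah and 1 of 5 among the single genes. Of these 19 genes, 16 had no window summit above the reproducible threshold, the highest of them at 28.8. Most genes with a pooled window summit were likewise below it: over all genes, 5068 had a pooled and 358 a reproducible one. Among genes with a pooled summit in either place, the median of the highest signal was 17.6 for the 23 matrix genes and 19.5 for all such genes.

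The leading pooled summits below the reproducible threshold were at ZP and leucine-rich repeat genes. At cutl-6 a summit 675 bp upstream had a pooled signal of 28.8 and held 1 GATA sequence. Replicate 1 had it at 20.5, and the only summit of the window in replicate 2, at 4.32, was 97 bp upstream. For cutl-17 the summit 7020 bp downstream, in an intron, had 25.1, with 14.8 and 6.93 in replicates 1 and 2. Its sequence above holds TGATAA and, 1 base on, AGATAA on the opposite strand, and it lies in the 5′ window of a neighbouring gene, cpin-1. SYM-1 acts redundantly in attaching muscle and epidermis, and the sym-1 gene sits within an intron of C44H4.4. Its summit, 13 bp downstream of the 5′ end, had a pooled signal of 24.8, with 16.5 and 7.66 in the replicates.

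CUT-6 is a ZP protein of the dauer cuticle, the larval diapause stage. Its summit 101 bp upstream had a pooled signal of 24.2, and 12.8 and 11.3 in replicates 1 and 2, at summits 31 bp apart. Both TGATAA and AGATAA are in its sequence, printed above. The other cutl genes with a pooled summit were lower. At cutl-23 the upstream summit (826 bp, 14.8) held 2 GATA sequences and was in replicate 1 alone, while the intron summit 614 bp downstream (17.6) had replicate summits 100 bp apart. Pooled signals at cutl-4 (16.6), cutl-8 (15.8), cutl-11 (16.4), cutl-12 (14.7), cutl-21 (15.2) and cutl-28 (14.5) were below the list's median of 18.0. Of these 6 genes, cutl-11 alone had replicate summits within 100 bp of each other, at 9.32 and 4.97.

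**Figure D2:**
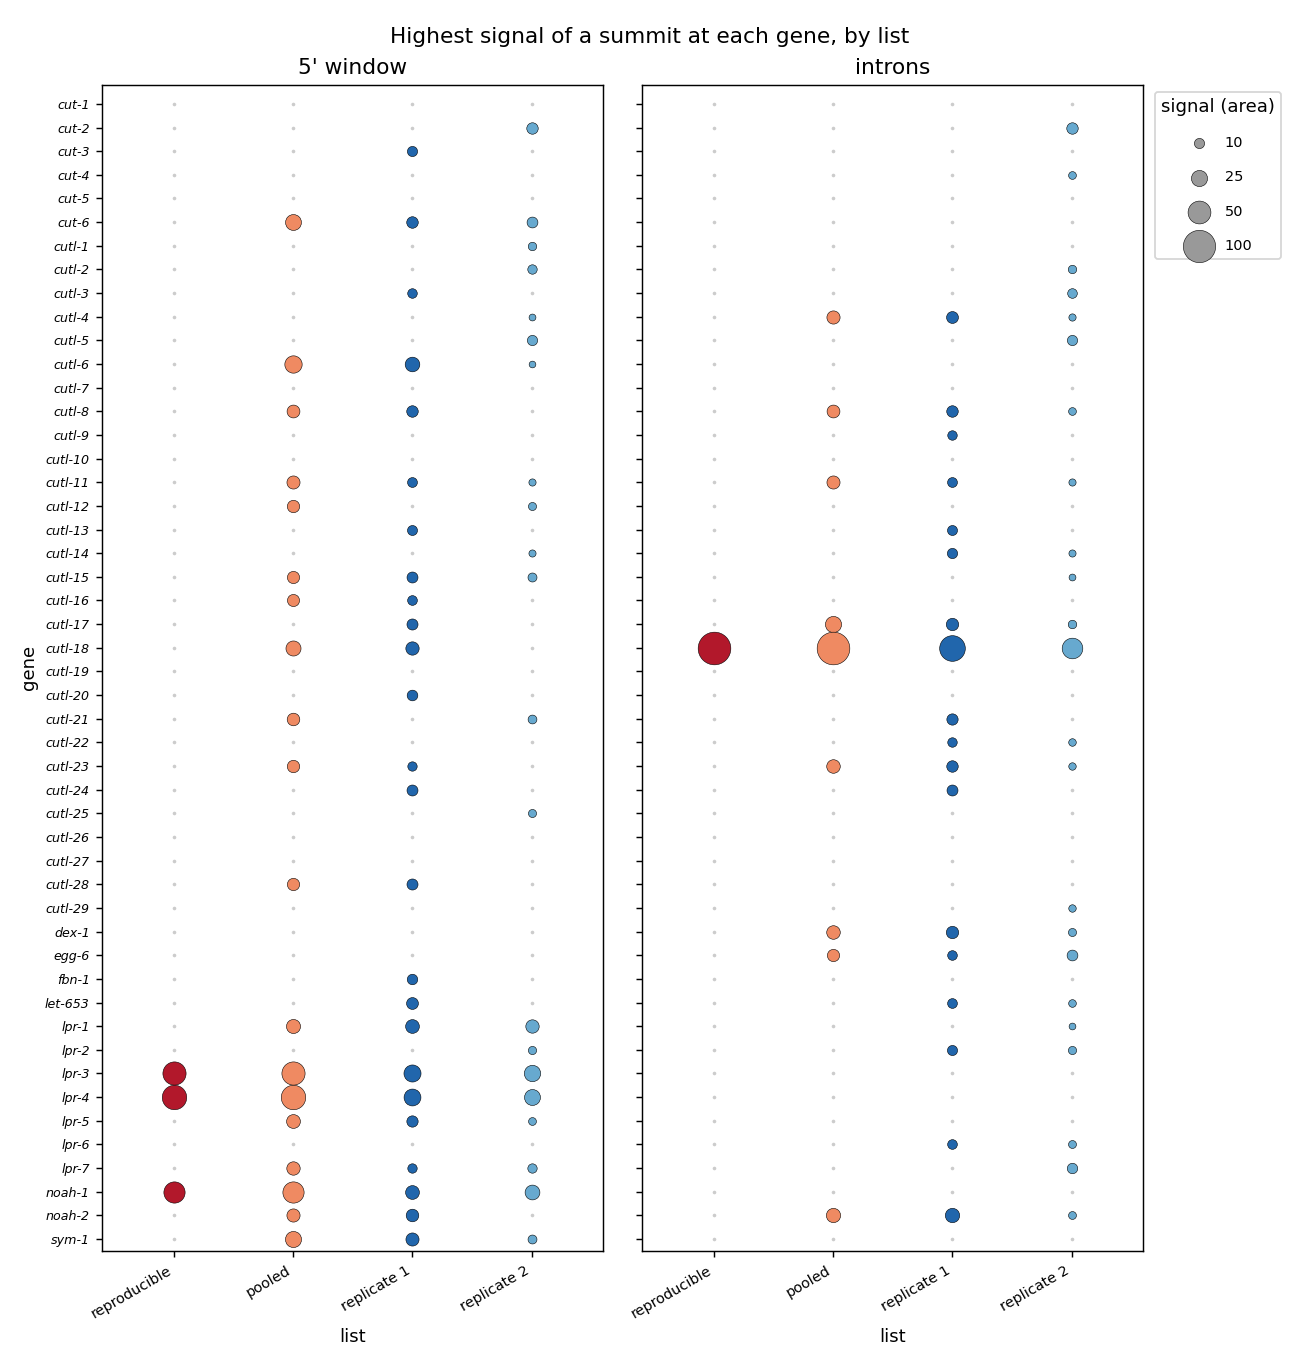
Highest signal of a summit at each of the 49 genes (rows) in each list (columns), in the 5′ window (left) and in introns (right). Circle area is the signal, on each list's own scale, and a grey dot means no summit. The largest circles are at cutl-18 (intron), lpr-4, lpr-3 and noah-1, and 7 genes have none in any column.

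Replicate lists gave the spread between samples. The 5′ window held a replicate 1 summit in 25 of 49 genes (51.0%, exact 95% interval 36.3 to 65.6%, against 33.6% of all genes) and a replicate 2 summit in 21 (42.9%, interval 28.8 to 57.8%, against 41.8%). Both lists had one, not always at the same place, in 11 genes, or 22.4% against 21.1% of all genes. The window had a summit in replicate 1 alone for 14 genes (28.6%, against 12.5% of all genes) and in replicate 2 alone for 10 (20.4% against 20.7%). The raised share of replicate 1 was thus not seen in replicate 2 or in both together.

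Introns held replicate 1 summits in 18 genes (36.7% against 18.7%), replicate 2 summits in 23 (46.9% against 24.6%) and both in 14 (28.6%, exact 95% interval 16.6 to 43.3%, against 11.5%). Having both means an intron summit in each list, not a shared site. At cutl-8, for example, they were 366 bp and 5112 bp downstream. The matrix genes have more intron sequence than others, with a median of 1928 bp per gene against 744 bp. Per 100 kb of intron, replicate 1 summits numbered 18.6 in the matrix genes and 17.04 in all genes, and replicate 2 summits 23.7 and 24.8. Pooled summits numbered 7.62 and 10.6, and reproducible summits 0.847 and 0.450, the first of these resting on the cutl-18 summit alone. Per length of intron, the matrix genes were thus below all genes in replicate 2 and the pooled list and above them in replicate 1 and the reproducible list.

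**Figure D3:**
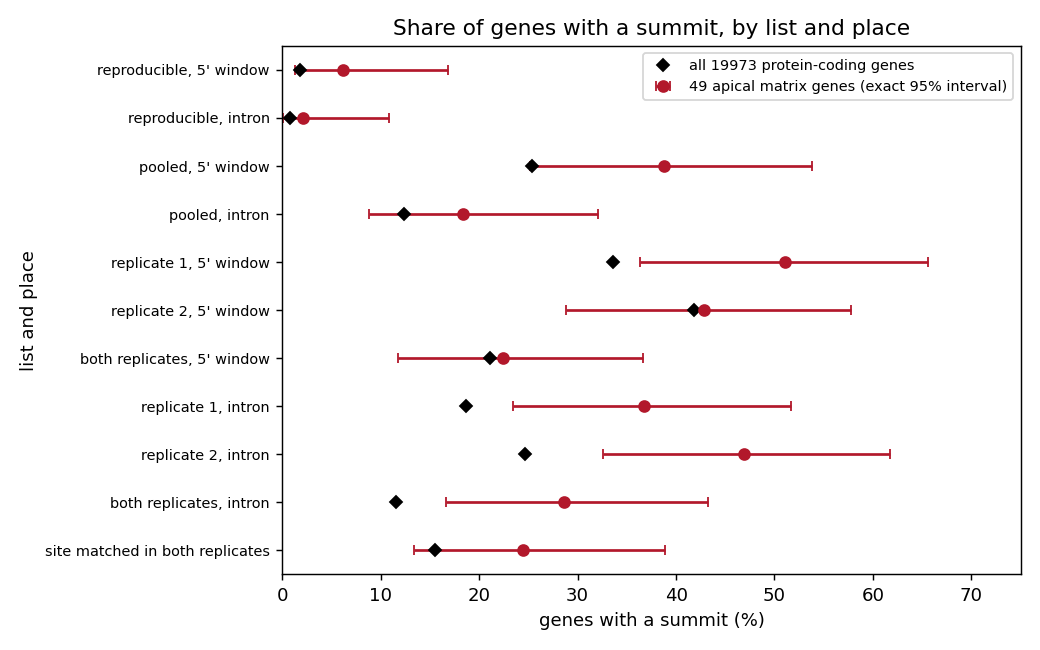
Share of genes with a summit (x axis, %) by list and place (rows). Red circles with exact 95% binomial intervals are the 49 matrix genes, and black diamonds are all 19973 protein-coding genes. The diamond lies outside the interval for replicate 1 windows (33.6%) and for introns of replicate 1 (18.7%), replicate 2 (24.6%) and both (11.5%), and inside it in the other rows.

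A replicate 1 summit in the window or an intron with a replicate 2 summit within 100 bp was found for 12 of the 49 genes (24.5%, exact 95% interval 13.3 to 38.9%), against 15.5% of all genes. These were cut-6, cutl-11, cutl-17, cutl-18, cutl-23, dex-1, egg-6, lpr-3, lpr-4, lpr-5, noah-1 and sym-1. The share includes intron sites and was not set against intron length, of which the matrix genes have more. The 4 with reproducible summits were the highest of the 12 in both replicates, as the making of that list implies. The matched site of dex-1 was not the reproducible summit upstream but lay 9044 bp downstream in replicate 1 (8.71), in an intron of one transcript and an exon of others, and 9092 bp downstream in replicate 2 (6.27). For egg-6, which encodes a leucine-rich repeat protein needed for excretory duct integrity, the replicate summits were 2 bp apart in an intron, 1127 bp downstream in replicate 1 (8.92) and 1125 bp in replicate 2 (11.1). The pooled egg-6 summit, at 14.4, lay elsewhere, 946 bp downstream. That gene was named after its values were seen.

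**Figure D4:**
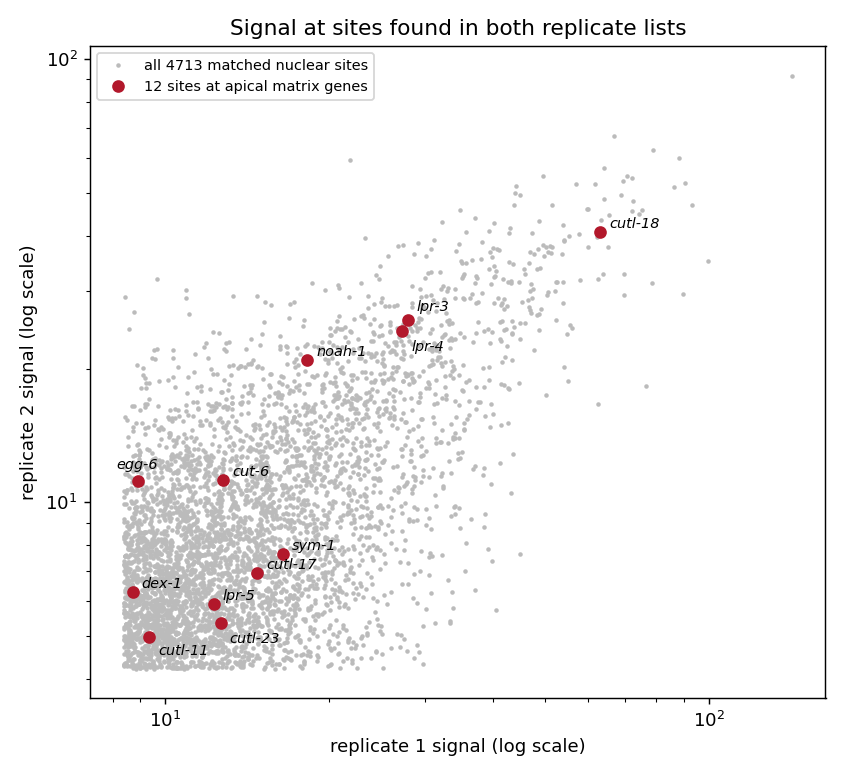
Signal in replicate 1 (x axis, log scale) and replicate 2 (y axis, log scale) at sites whose summits lie within 100 bp of each other. Grey points are all 4713 such nuclear sites and red points the 12 at matrix genes. The red point highest in both replicates is cutl-18 (63.1 and 40.8), followed by lpr-3, lpr-4 and noah-1. The lowest is dex-1 in replicate 1 (8.71) and cutl-11 in replicate 2 (4.97).

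The genes with no pooled summit numbered 26. Of these, 19 had a summit in a replicate list, or 38.8% of the 49 against 32.4% of all genes. For 6 both replicates had a summit (12.2% against 6.28%), though none of these genes had a matched site. For 6 replicate 1 alone had a summit (12.2% against 8.02%) and for 7 replicate 2 alone (14.3% against 18.1%). Among them were let-653 and fbn-1, also named after their values were seen. LET-653 is a ZP protein that shapes the lumen of the excretory duct, and its window had 1 summit, 695 bp upstream in replicate 1 at 13.5, with 2 GATA sequences. Intron summits of let-653 were 3560 bp downstream in replicate 1 (9.19) and 3763 bp downstream in replicate 2 (5.67), so they did not match. The first of them also lies in coding sequence of let-653. FBN-1 is a fibrillin-related ZP protein that resists mechanical strain on the embryonic epidermis. The fbn-1 window had 1 summit, 105 bp upstream in replicate 1 at 10.6, also with 2 GATA sequences, and its introns held none in any list. The 7 genes with no summit in any list were cut-1, cut-5, cutl-7, cutl-10, cutl-19, cutl-26 and cutl-27. Of all protein-coding genes 35.2% had none. All these shares count intron summits too and were not set against intron length, of which the matrix genes have more. Read depth is unknown from peak lists, so a gene without a summit is one where none was detectable.

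The distance from a 5′ end to the nearest reproducible summit ran from 110 bp at lpr-3 to 321167 bp at cutl-2, with a median of 41747 bp, next to 63471 bp over all genes. Within 5 kb of such a summit lay 8 of the 49 genes (16.3%), where 6.16% of all genes did. The 8 included lpr-5 and lpr-6, which share the summits of the neighbouring lpr-3 and lpr-4, so they are not 8 separate sites. Within 20 kb lay 15 genes (30.6% against 20.5%). They again include lpr-5 and lpr-6, and also cutl-1, whose nearest summit is that of cut-2, so these are not separate sites either.

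Other genes of matrix assembly and moulting were looked up from a list of 22, of which 21 matched the annotation. A reproducible summit stood in the 5′ window of 1, nhr-23, where 1.79% of all genes had one. This gene encodes a nuclear receptor that drives moulting cycles, and the summit lay 971 bp upstream at 46.6. The highest window summit of nhr-23 was 967 bp upstream in replicate 1 (16.9) but 332 bp downstream in replicate 2 (7.70). None of the 21 genes had a reproducible intron summit, where 0.731% of all genes did. In the pooled list 8 of the 21 had a summit in the window, where 25.4% of all genes did, and 10 had one in an intron, where 12.4% did. A matched site in both replicates was found for 8, and for 15.5% of all genes. The intron length of the 21 genes was not measured, so their intron and matched counts were not set against length. The highest pooled window signals after nhr-23 were at nas-36, an astacin protease gene of moulting (39.9), sup-17, an ADAM metalloprotease gene (30.9), and nekl-2, a NIMA-related kinase gene of moulting (24.2). These 3 were named after their values were seen.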

How the data were processed

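ELT-3 ChIP-seq was done on 2 biological replicates of 1 group. Per the deposited listings of each library, regions were called for each replicate and for both pooled, together with 1 file from outside the listings, and the reproducible list was derived from these. Aligner, caller and IDR threshold were not given in the sources used here. The signal is a score of the authors' caller as deposited, and intervals cover counting error only, since read depth is unknown.

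Only the ce11 lists were used, and every region ended within its WBcel235 chromosome. Summits were assigned to Ensembl release 115 genes with Python 3.11.15 and intervals came from SciPy 1.17.1. No significance test was run: shares of the 49 genes are set beside those of all 19973 protein-coding genes. The assignment rules were tested on simulated data. Members and lists were chosen with earlier results of these data known. Named genes were all with a reproducible summit in the window, an intron or by nearest 5′ end, up to 15 more by pooled signal, and genes of the second list with a reproducible summit. Also named, after their values were seen, were lpr-2, lpr-6, egg-6, let-653, fbn-1, 3 genes of the second list and those without a summit. bus-8 was not matched. Alternatives changed the window, 5′ ends, overlap rule, signal threshold, intron rule, matching distance, motif and replicates.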

Additional observations from a re-analysis of the deposited data

How the results depend on the processing

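Of 33 alternatives, 23 kept the count within 1.5 times or the share within its interval, and 10 did not. Counts below are of the 49 genes, and each percentage is the share of all protein-coding genes called under the same setting. Among the reproducible peaks above their median signal, lpr-4 alone kept a summit in the 5′ window, leaving 1 gene (0.781%), and the median distance to the nearest summit was 91079 bp (128889 bp over all genes), since fewer peaks were counted. With nearest 5′ ends in place of the window 6 genes had a reproducible summit (2.86%), adding cut-2, cutl-18 and dex-1. With summits near small RNA genes left out, chosen after seeing the data, 0 genes had a reproducible intron summit (0.606%). With the regions above each list's median signal, fewer regions were counted. There were 9 genes for pooled windows (15.5%), 3 for pooled introns (6.15%), 7 for windows in both replicates (10.9%) and 3 for introns in both (5.21%). Windows in both replicates gave 7 genes from 500 bp upstream (14.2%) and 20 from 2000 bp (31.6%), by the width of the window. Leaving out replicate 1 gave 3 genes with a summit in the window (1.91%) and 1 with an intron summit (0.736%). Leaving out replicate 2 gave 2 (1.71%) and 1 (0.721%). The intron summit was that of cutl-18 each time. No paired analysis was possible because there was only 1 group.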
